A study of Saccharomyces cerevisiae with 134 samples.

Results

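The JmjC family of budding yeast has 5 genes, and all 5 were found by their identifiers among the 6692 features of the RNA tables and the 5355 genes of the H3K36me3 tables. They are RPH1 (YER169W), GIS1 (YDR096W), JHD1 (YER051W), JHD2 (YJR119C) and ECM5 (YMR176W), chosen by name as a family, with earlier results of these data known. The question put to them was whether the RNA of any member differs when RPH1 is deleted or when H3K36 methylation is switched with light, and what H3K36me3 does on their own genes.

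JmjC proteins are iron- and 2-oxoglutarate-dependent enzymes that oxidise methyl groups on lysine side chains, and most remove methylation from histones. Rph1 removes di- and trimethylation of lysine 36 of histone H3 and is also a DNA-binding repressor of stress and autophagy genes. Gis1 is its closest relative and acts downstream of the kinase Rim15 on genes used as glucose runs out. Jhd1 acts on lower methylation states of H3K36, Jhd2 removes H3K4 methylation, and Ecm5 works in a complex with Snt2 and the deacetylase Rpd3. Set2, the only H3K36 methyltransferase of this yeast, places the mark that Rph1 and Jhd1 remove.

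All cells were of strain BY4741, grown at 30 °C. RNA-seq covered rph1Δ cells and WT cells grown in YPD, with 3 libraries each. It also covered set2Δ cells carrying LANS-Set2, grown in SC−LEU. LANS-Set2 is Set2 fused to a light-activated nuclear shuttle, which enters the nucleus in blue light (500 µW/cm2) and leaves it in darkness. Dark-grown cells were followed at 0, 20, 40 and 60 min of light and light-grown cells at 0, 30, 60 and 90 min of darkness, with 3 libraries per time and 2 at 60 min of light. H3K36me3 ChIP-seq covered set2Δ rph1Δ cells carrying LANS-Set2 moved from light to dark, and set2Δ cells carrying LANS-Set2 moved in each direction, with 3 libraries per time. All course cells therefore lack the native SET2 gene, and the set2Δ course cells keep RPH1. The labels do not say whether libraries came from separate cultures, so p-values measure the spread between these libraries, which may be technical. The libraries are bulk samples, so a change in some of the cells and a smaller change in all of them cannot be told apart.

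The libraries held 9295949 to 14334963 assigned reads in rph1Δ and WT cells, 16022537 to 29032861 in the dark to light course and 10551857 to 27652694 in the light to dark course. SET2 reads, which come from LANS-Set2 in the courses, stood at 78.8 to 172 TPM there, against 17.1 ± 0.15 TPM in WT cells. TPM, the RNA unit, is the number of reads per length scaled to the same total in every library. A gene was called changed when its p-value, adjusted by Benjamini-Hochberg over all genes of the fit, was under 0.05. Log2 changes are given ± SE and levels as mean ± SD.

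None of the 5 genes overlaps another annotated gene in the R64 build. RPH1 lies on chromosome V at 523369 to 525759 and encodes 796 residues. GIS1 lies on chromosome IV at 637139 to 639823 (894 residues), JHD1 on chromosome V at 254656 to 256134 (492 residues), and ECM5 on chromosome XIII at 611740 to 615975 (1411 residues), all on the plus strand. JHD2 lies on the minus strand of chromosome X at 644304 to 646490 (728 residues). In a MAFFT alignment of the translated genes, Rph1 and Gis1 were identical at 42.3% of 730 aligned residues, and the other 9 pairs at 18.7% to 27.7%. A zinc finger of the C2H2 spacing was found in Rph1 at residues 711 to 732 and in Gis1 at residues 830 to 851, with 19 of 22 residues and 52 of 66 bases identical. The longest run of bases shared exactly by the coding sequences of RPH1 and GIS1 was 14, so a longer read cannot match both exactly.

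The coding sequence around the catalytic centre shows how the members differ. In capitals are the codons of the iron-binding histidine and of the acidic residue that follows it at a distance of 2 residues, found by the pattern W or F, H, L or M, D or E. For ECM5, which had no such pattern, the capitals mark the codons that the alignment places opposite those of RPH1. All are plus strand of R64 except JHD2, which is given on the minus strand of its chromosome.

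RPH1, V:524056-524091: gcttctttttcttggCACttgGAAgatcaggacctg

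GIS1, IV:637733-637768: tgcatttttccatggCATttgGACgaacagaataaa

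JHD1, V:255553-255588: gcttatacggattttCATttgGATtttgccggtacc

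JHD2, X:645192-645227: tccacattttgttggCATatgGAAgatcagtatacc

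ECM5, XIII:613288-613323: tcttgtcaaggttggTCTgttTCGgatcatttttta

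The residues are H235 and E237 in Rph1, H204 and D206 in Gis1, H305 and D307 in Jhd1 and H427 and E429 in Jhd2. Ecm5 has S522 and S524 in their place, so neither of these iron-binding side chains is present at the aligned position.

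In WT cells RPH1 had the highest RNA level of the family and JHD2 the lowest. RPH1 averaged 16.3 ± 0.94 TPM, ECM5 8.23 ± 0.31 TPM, GIS1 8.03 ± 0.47 TPM, JHD1 6.72 ± 0.049 TPM and JHD2 3.71 ± 0.19 TPM (SD, n = 3 each). ECM5 and GIS1 overlapped between libraries, and the other neighbours in this order did not. RPH1 stood at the 48.0th percentile of all features and the other members between the 13.7th and the 26.5th, so the family was expressed at low to middling levels.

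RPH1 RNA was nearly absent from the libraries labelled rph1Δ. It had 0, 1 and 2 reads in the rph1Δ libraries, against 953, 816 and 1023 reads in the WT libraries. Summed over libraries, 3 reads against 2792 put the rph1Δ rate at 0.0965% of the WT rate (exact 95% interval 0.0199% to 0.282%, counting error only). The deletion itself is not a finding, and RPH1 is left out of the counts below.

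None of the 4 other members changed in rph1Δ cells (edgeR's quasi-likelihood test), while 748 of 6088 genes did, which is a background of 12.3%. None of the 4 had an unadjusted p under 0.05, and DESeq2 called none. GIS1 had 8.99, 9.37 and 7.97 TPM in rph1Δ cells, against 8.11, 8.46 and 7.53 TPM in WT cells. JHD1, whose product acts on lower methylation states of H3K36, had 6.10, 7.86 and 6.17 TPM in rph1Δ cells, against 6.66, 6.76 and 6.72 TPM in WT cells. In all 4 genes the rph1Δ and WT libraries overlapped, as the plot of TPM in rph1Δ and WT cells shows.

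JHD2 had 3.68, 4.12 and 3.57 TPM in rph1Δ cells, against 3.91, 3.69 and 3.52 TPM in WT cells. ECM5 had 8.25, 9.79 and 8.27 TPM in rph1Δ cells, against 8.58, 8.01 and 8.11 TPM in WT cells. Replicate 2 was the highest of the rph1Δ libraries for GIS1, JHD1, JHD2 and ECM5.

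**Figure D1:**
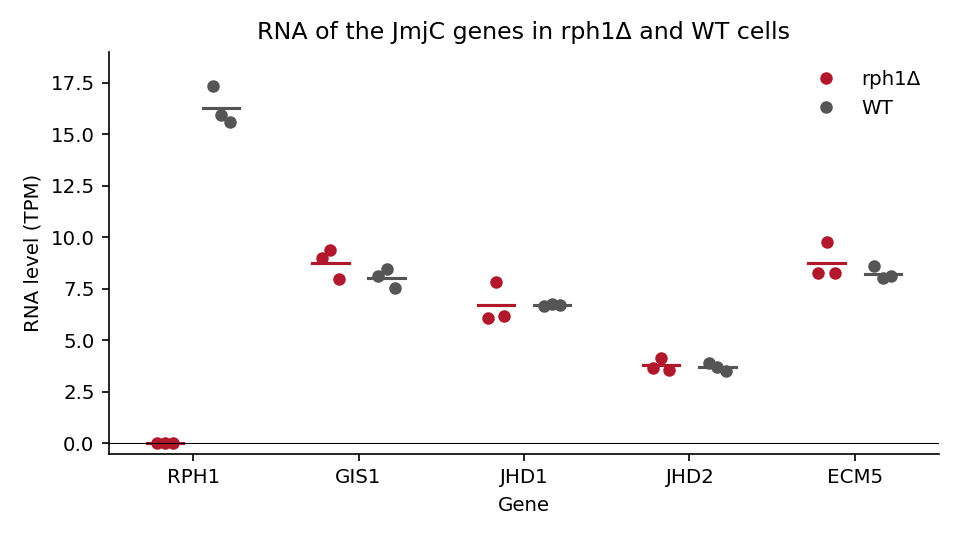
RNA level (TPM, vertical axis) of the 5 JmjC genes in rph1Δ libraries (red, left of each pair) and WT libraries (grey, right); points are libraries (n = 3 per group) and bars their means. RPH1 sits at 0 to 0.0248 TPM in rph1Δ cells, while the points of the other 4 genes overlap between the groups.

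The size of change that these libraries leave possible was small. The rph1Δ to WT ratio was 1.08 for GIS1 (95% interval 0.99 to 1.18, edgeR adjusted p = 0.29), 1.05 for ECM5 (0.97 to 1.14, adjusted p = 0.42), 1.01 for JHD2 (0.89 to 1.16, adjusted p = 0.92) and 0.99 for JHD1 (0.86 to 1.14, adjusted p = 0.94). The intervals of all 4 genes thus lie between 0.858 and 1.18 times the WT level, before any allowance for testing many genes. The median log2 change of the 4 genes was 0.05, beside -0.01 over all 6088 genes.

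Of the genes on either side of RPH1, ADK2 rose and CCA1 did not pass the test. ADK2 (YER170W), an adenylate kinase gene that begins 214 bases after the end of RPH1 on the same strand, had 10.6, 11.6 and 10.6 TPM in rph1Δ cells, against 8.01, 7.21 and 8.46 TPM in WT cells. All rph1Δ libraries were above all WT libraries, though the share of all genes that show the same was not counted here. The log2 change was 0.45 ± 0.12 (edgeR adjusted p = 0.017). The call was lost with DESeq2 (adjusted p = 0.076), without WT replicate 2 (edgeR adjusted p = 0.073) and without rph1Δ replicate 2 (edgeR adjusted p = 0.063). CCA1 (YER168C), the gene of the enzyme that adds the CCA end to tRNAs, which lies 699 bases before RPH1 on the other strand, had a log2 change of 0.04 ± 0.05 (edgeR adjusted p = 0.67).

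Among genes that work with the family, some targets of Rph1 and Gis1 rose, while no methyltransferase gene passed. The gene lists were chosen with earlier results of these data known, so their counts describe these genes and do not test the lists. None of 10 genes for histone methyltransferases and their Set1 complex (SET1, SET2, DOT1, BRE2, SWD1, SWD2, SWD3, SPP1, SDC1, SHG1) passed the test, and their median log2 change was -0.01. SNT2 and RPD3, whose products work with Ecm5, did not pass either, at -0.10 ± 0.05 and -0.12 ± 0.05 (edgeR adjusted p = 0.24 and 0.13). Of 10 target genes (PHR1, ATG7, ATG8, ATG9, ATG14, ATG29, DPP1, SSA3, HSP12, HSP26), 4 rose and none fell, with a median log2 change of 0.40 beside -0.01 over all genes. Over all 6088 genes, 576 rose and 172 fell.

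ATG14, a subunit of the autophagy lipid kinase, rose by 0.68 ± 0.15 (edgeR adjusted p = 0.0052), and ATG8, the conjugated protein of autophagosome membranes, rose by 0.64 ± 0.19 (edgeR adjusted p = 0.040). The others were ATG7 and ATG9. PHR1, the photolyase gene through which Rph1 and Gis1 were first described as repressors, had a log2 change of 0.27 ± 0.12 (edgeR adjusted p = 0.18). Of 8 genes for regulators that act upstream of or beside the family (RIM15, IGO1, IGO2, MSN2, MSN4, SCH9, TOR1, MOT2), 1 rose: RIM15, the kinase that activates Gis1, by 0.24 ± 0.04 (edgeR adjusted p = 0.00099). This 1 call among 8 genes is near the background of 12.3% of all 6088 genes.

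In the LANS-Set2 courses RPH1, GIS1 and ECM5 were the more abundant members, and JHD1 and JHD2 were lowest at every time. RPH1 group means lay between 18.1 and 22.3 TPM over both courses, GIS1 between 15.9 and 21.9 TPM and ECM5 between 15.4 and 19.2 TPM. Those of JHD1 lay between 9.26 and 11.3 TPM and those of JHD2 between 6.84 and 10.3 TPM. In these cells all 5 members thus had higher mean TPM than in WT cells, but medium, genotype and table all differ, and the difference was not tested. RPH1 and GIS1 overlapped between libraries at 20 and 40 min of light and at 30, 60 and 90 min of darkness. GIS1 overlapped ECM5 at 0 and 60 min of light, and GIS1 was above RPH1 in all libraries at 0 min of the light to dark course.

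After dark-grown cells were moved into light, 2 of the 5 members rose, GIS1 and ECM5, both at 40 min (limma on log2 of TPM plus 1). GIS1 had 16.0, 15.2 and 16.6 TPM at 0 min, then 20.3, 18.7 and 19.4 TPM at 20 min, 21.8, 19.5 and 22.3 TPM at 40 min and 18.4 and 18.6 TPM at 60 min. Every later GIS1 library was above every 0 min library, and the mean at 60 min was below those at 20 and 40 min. At 40 min the ratio to 0 min was 1.31 (95% interval 1.19 to 1.44, log2 change 0.39 ± 0.06, limma adjusted p = 0.017).

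ECM5 had 15.1, 16.0 and 15.7 TPM at 0 min, then 17.9, 17.2 and 16.9 TPM at 20 min, 18.5, 18.2 and 18.7 TPM at 40 min and 18.3 and 20.1 TPM at 60 min. Its libraries at each later time were also all above those at 0 min. At 40 min the ratio to 0 min was 1.17 (95% interval 1.08 to 1.27, log2 change 0.23 ± 0.05, limma adjusted p = 0.043). At 60 min the log2 change was 0.28 ± 0.06 without passing the test (limma adjusted p = 0.077), and it passed when reads recovered from TPM were tested (edgeR adjusted p = 0.033).

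The members' calls stand against a background that depends on the time. At 40 min 224 of 5907 genes were called, or 3.79%, and the median log2 change of all genes was 0.10. The middle 90% of all genes ran from -0.20 to 0.44 in the limma fit, and the changes of GIS1 and ECM5 lay within it. At 20 min 1 gene (0.0169%) and at 60 min 3 genes (0.0508%) were called, none of them a member, beside 532 and 1159 genes, 2 and 3 members among them, at an unadjusted p under 0.05. Of the genes called at 40 min, 209 were higher and 15 lower by limma, against 202 higher and 280 lower by edgeR on recovered reads. In the edgeR fit GIS1 (0.32, adjusted p = 0.013) and ECM5 (0.15, adjusted p = 0.0498) were still called as higher. The GIS1 call at 40 min was lost without replicate 1 or 2 of 0 min or replicate 1 or 3 of 40 min (limma adjusted p = 0.061 to 0.10), and without each of these 4 libraries the calls among all genes fell to between 1 and 7. The ECM5 call was lost without any of these, without replicate 2 or 3 of 20 min and without replicate 2 of 40 min (limma adjusted p = 0.067 to 0.20).

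JHD1 had 9.46, 9.00 and 9.32 TPM at 0 min, 9.83, 10.8 and 10.0 TPM at 20 min, 10.9, 10.4 and 9.96 TPM at 40 min and 11.3 and 11.4 TPM at 60 min. Its later libraries did not overlap those at 0 min, but it passed the test at no time, with a log2 change of 0.26 ± 0.06 at 60 min (limma adjusted p = 0.095). RPH1 itself had 21.8, 20.4 and 19.7 TPM at 0 min, 23.7, 18.6 and 17.9 TPM at 20 min, 23.0, 21.9 and 20.8 TPM at 40 min and 22.8 and 21.8 TPM at 60 min. The RPH1 libraries overlapped those at 0 min except at 60 min, where they lay above by less than the rounding of these values, and its log2 changes ran from -0.05 ± 0.09 at 20 min to 0.11 ± 0.11 at 60 min (limma adjusted p of 0.59 or more).

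JHD2 ran from 9.09 to 11.3 TPM over the 11 libraries with a median of 9.64 TPM and overlapped 0 min at every time. Libraries above all 0 min libraries were found for 3 members at 20 min, 3 at 40 min and 4 at 60 min, where 10.6%, 28.9% and 26.6% of all 5907 genes showed the same.

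**Figure D2:**
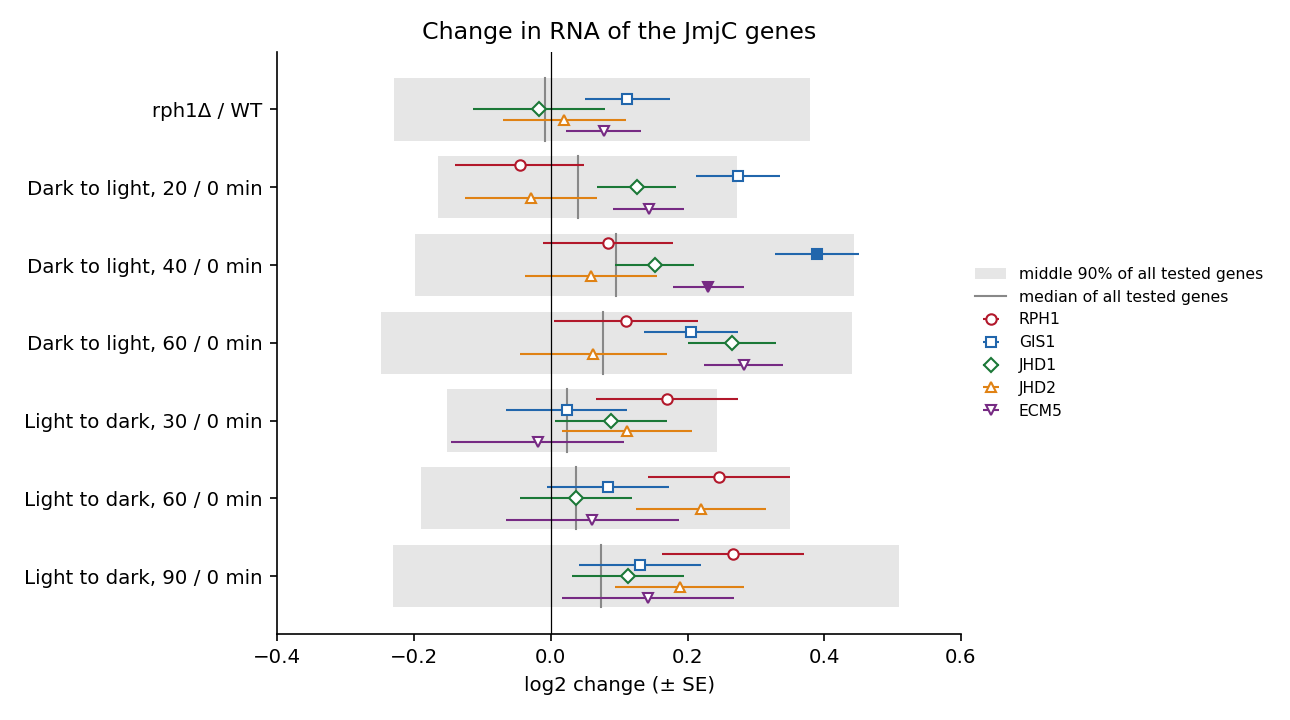
Log2 change in RNA (horizontal axis, points ± SE) of the JmjC genes in each comparison, with filled symbols where the adjusted p is under 0.05; grey bands hold the middle 90% of all tested genes and grey lines their median. GIS1 and ECM5 at 40 min of light are the only filled symbols, and RPH1 is not drawn for rph1Δ against WT.

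The authors' deposited table of changed genes lists GIS1 at 20 min of light (log2 -0.22, adjusted p = 0.029) and at 40 min (log2 -0.28, adjusted p = 0.00021). The authors' deposited table lists ECM5 at 40 min (log2 -0.14, adjusted p = 0.027) and 60 min (log2 -0.21, adjusted p = 0.0013). At 20, 40 and 60 min of light these tables list 88, 687 and 445 genes, where 5907 genes were tested here. The sign in the authors' deposited tables is the reverse of later time over 0 min: it was opposite to the TPM change for 685 of 685 shared genes at 40 min and for every shared gene of the other 5 tables. Read that way, GIS1 and ECM5 are higher after the switch to light in the authors' deposited tables. This direction was set by the TPM of the same libraries, so it is not separate support. No member is in the authors' deposited tables for the light to dark course, which list 14, 117 and 313 genes at 30, 60 and 90 min.

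The promoters of the genes that rose were read for the words that Rph1, Gis1 and the stress factors Msn2 and Msn4 bind. These are AGGGG, the stress response element, and AGGGA, the core of the post-diurnal shift element. From 250 bases before to 50 bases after the start codon, on either strand (CCCCT and TCCCT), neither GIS1 nor ECM5 had a match, nor did JHD1 or JHD2. RPH1 had 1 match to AGGGG, at -126 from the start codon, and 2 matches to AGGGA, of which 1 lies further upstream than the stretch shown. The words differ in their last base and no match overlapped another. Of 6001 promoters of the same length, 21.6% held AGGGG and 37.0% held AGGGA on either strand, so a match is common, and it is a description of the letters and not a site. The 150 bases before the start codon (R64, plus strand) are shown with matches in capitals.

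GIS1, IV:636989-637138: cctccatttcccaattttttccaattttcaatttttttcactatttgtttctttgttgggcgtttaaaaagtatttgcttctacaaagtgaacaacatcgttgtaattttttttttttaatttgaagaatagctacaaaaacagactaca

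ECM5, XIII:611590-611739: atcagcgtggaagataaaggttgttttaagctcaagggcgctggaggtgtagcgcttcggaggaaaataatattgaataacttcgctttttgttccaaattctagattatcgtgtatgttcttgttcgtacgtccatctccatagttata

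RPH1, V:523219-523368: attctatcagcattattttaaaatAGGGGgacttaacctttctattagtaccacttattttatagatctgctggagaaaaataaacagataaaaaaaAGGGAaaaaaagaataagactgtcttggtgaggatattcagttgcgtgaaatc

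Of the genes around the family, 3 rose with GIS1 and ECM5 at 40 min of light. HSP12, a membrane-stabilising stress protein, rose by 0.96 ± 0.17 (limma adjusted p = 0.022) and HSP26, a small heat-shock chaperone, by 0.93 ± 0.20 (limma adjusted p = 0.038). They were 2 of the 10 target genes, whose median log2 change was 0.30 beside 0.10 over all genes. Of all 5907 genes, 209 rose at this time. MSN4, a stress transcription factor that binds AGGGG, rose by 0.34 ± 0.07 (limma adjusted p = 0.030) and was 1 of the 8 regulator genes. Each of these 3 calls was lost without replicate 1 of 0 min, replicate 2 of 0 min, replicate 1 of 40 min or replicate 3 of 40 min, and those of MSN4 and HSP26 also without replicate 3 of 20 min (limma adjusted p of 0.052 to 0.17 for the 3 genes). None of the 10 methyltransferase genes passed, nor did SNT2 or RPD3, at any time of light.

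After light-grown cells were moved into darkness, no member passed the test at 30, 60 or 90 min, by limma or by edgeR on recovered reads, and 0, 2 and 1 members had an unadjusted p under 0.05 in the limma fit. At that unadjusted threshold the limma fit held 144, 417 and 811 of all 5884 genes. The shares of all 5884 genes called were 0% (0 genes by limma and by edgeR on recovered reads), 0.306% and 1.95%. RPH1 had 18.2, 18.6 and 17.5 TPM at 0 min, 19.7, 22.7 and 19.2 TPM at 30 min, 20.9, 22.6 and 21.6 TPM at 60 min and 18.7, 22.5 and 25.2 TPM at 90 min. All later RPH1 libraries were above all 0 min libraries, but the spread at 90 min was wide, and the log2 change there was 0.27 ± 0.10 (ratio 1.20, 95% interval 1.03 to 1.41, limma adjusted p = 0.28). At 60 min it was 0.25 ± 0.10 (limma adjusted p = 0.66).

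GIS1 had 22.3, 18.8 and 18.7 TPM at 0 min, 20.7, 21.3 and 18.8 TPM at 30 min, 19.6, 23.0 and 20.9 TPM at 60 min and 21.0, 22.3 and 22.3 TPM at 90 min, which overlap throughout. Its log2 change at 90 min was 0.13 ± 0.09 (ratio 1.09, 95% interval 0.95 to 1.26, limma adjusted p = 0.61). ECM5 ran from 13.7 to 18.8 TPM over the 12 libraries with a median of 16.4 TPM, and its log2 change at 90 min was 0.14 ± 0.13 (limma adjusted p = 0.69). For ECM5 replicate 1 was the lowest library at every time of this course, as it was for SET2, at 78.8 to 101 TPM against 119 to 172 TPM in replicates 2 and 3, and the part of this in the ECM5 values was not tested.

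JHD1 ran from 9.03 to 11.4 TPM with a median of 10.2 TPM, and its log2 change at 90 min was 0.11 ± 0.08 (limma adjusted p = 0.63). JHD2 ran from 5.95 to 8.36 TPM with a median of 7.63 TPM, and its log2 change was 0.22 ± 0.09 at 60 min and 0.19 ± 0.09 at 90 min (limma adjusted p = 0.66 and 0.43). All 12 JHD2 libraries of this course were below the 11 of the dark to light course, which were normalised in a separate table and not tested against them. The share of all genes that separate the courses in this way was not counted here. Libraries above all 0 min libraries were found for 1 member at 30 min, 2 at 60 min and 2 at 90 min, where 4.16%, 7.8% and 11.6% of all genes showed the same. Among the genes around the family, HSP12 alone passed, at 90 min, by 0.83 ± 0.12 (limma adjusted p = 0.0060).

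GIS1 had the widest range of group means over the 8 course groups, 0.39 on the log2 scale, against 0.28 for ECM5, 0.27 for RPH1, 0.26 for JHD1 and 0.22 for JHD2. Of 5425 other genes with a mean of at least 5 TPM, the 5 whose group means lay closest to those of GIS1, with each course centred on its own mean, were AIM25, YKL123W, YSC84 (an actin-binding protein), YPL247C and GPT2 (a glycerol-3-phosphate acyltransferase). Their root mean square differences from GIS1 were 0.019 to 0.025 log2 units over the 8 groups. YKL123W is not among the annotated R64 genes used here, and YPL247C overlaps 1 other annotated gene, YNCP0002W. The measure ranks similarity in these means and carries no test.

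H3K36me3 on the members' own genes went with the light in both directions, as on nearly all genes. The deposited signal has no stated unit, so slopes are in log2 per hour of the signal plus 0.1 times the table's median, and levels from different courses are set side by side without a test. In set2Δ cells moved from dark to light the signal rose on all 5 members, and on 99.9% of 4816 genes. RPH1 reached 0.148 ± 0.025 at 60 min, against 0.0225 ± 0.0014 at 0 min, a 6.61-fold rise. GIS1 reached 0.204 ± 0.037, against 0.0405 ± 0.0035, or 5.04-fold, and ECM5 0.0879 ± 0.012, against 0.0176 ± 0.0019, or 4.98-fold. The groups at 60 and 0 min did not overlap in any member.

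JHD1 reached 0.112 ± 0.027 at 60 min, against 0.0241 ± 0.0013 at 0 min, or 4.66-fold. JHD2, whose signal was the lowest of the family at every time, reached 0.0495 ± 0.0066, against 0.0131 ± 0.0015, or 3.79-fold. The median gene rose 4.13-fold. Slopes ran from 1.60 ± 0.14 per hour on JHD2 to 2.48 ± 0.18 on RPH1, beside a median of 1.87 over all genes.

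**Figure D3:**
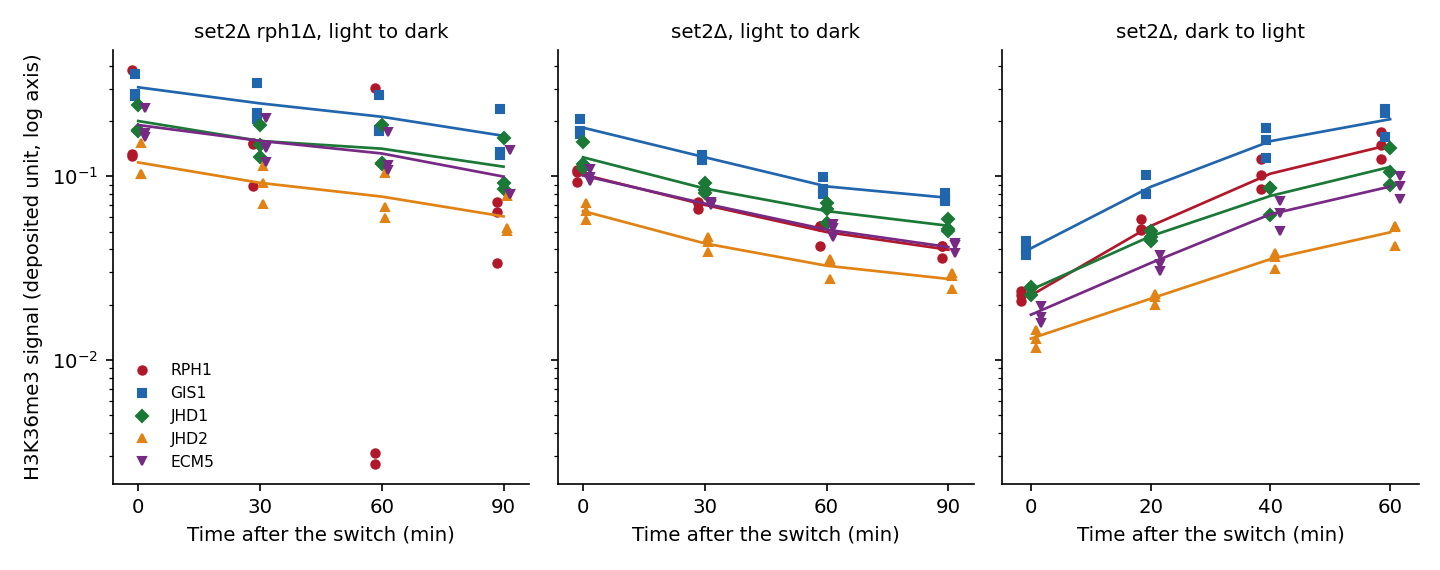
H3K36me3 signal in the deposited unit (vertical log axis) on the 5 JmjC genes against time after the switch (min, horizontal axis; points are shifted slightly sideways by gene), in set2Δ rph1Δ cells from light to dark (left), set2Δ cells from light to dark (middle) and set2Δ cells from dark to light (right). Points are libraries (n = 3 per time) and lines join means, with no line for RPH1 in set2Δ rph1Δ cells, where its points run from 0.0027 to 0.378.

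Taken against the median of each library, the members gained the mark at different rates. RPH1 gained faster than the library median, by 0.51 ± 0.06 per hour (limma adjusted p = 4.0e-05), which stood at the 98.4th percentile of all genes. Its signal moved to the 69.7th percentile of all genes at 60 min, against the 50.3rd percentile at 0 min. GIS1 also gained faster, by 0.23 ± 0.07 per hour (limma adjusted p = 0.011), and JHD2 more slowly, at -0.37 ± 0.11 per hour (limma adjusted p = 0.014). ECM5 (0.09 ± 0.04, limma adjusted p = 0.11) and JHD1 (0.01 ± 0.07, limma adjusted p = 0.89) did not pass.

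The background for these relative slopes was high, with 51.1% of all genes called and a median of -0.10 per hour, so 3 calls among 5 members are near the background share. With a smaller added constant, 0.01 times the table's median, the call was lost for GIS1 (0.17, limma adjusted p = 0.052) and JHD2 (-0.25, limma adjusted p = 0.11), and ECM5 passed as faster (0.16, limma adjusted p = 0.016). ECM5 also passed as faster without the filter on low signal (0.13, limma adjusted p = 0.025) but as slower with the constant at the table's median (-0.067, limma adjusted p = 0.037), so its direction depends on the constant. RPH1 passed under each constant tried, at 0.35 to 0.55 per hour.

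In set2Δ cells moved from light to dark the signal fell on all 5 members, as on 99.6% of 4813 genes. RPH1 fell to 0.0398 ± 0.0033 at 90 min, against 0.102 ± 0.0077 at 0 min, so that 39.0% remained. The share remaining was 41.5% on GIS1, 42.4% on JHD1, 42.7% on JHD2 and 40.9% on ECM5, beside 43.2% on the median gene. RPH1 thus kept the smallest share of the 5 members and JHD2 the largest.

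Slopes ran from -0.83 ± 0.08 per hour on RPH1 to -0.71 ± 0.09 on JHD2, beside a median of -0.75. Relative to the library median no member passed the test, where 19.6% of genes did. These relative slopes ran from -0.04 ± 0.04 per hour on RPH1 (limma adjusted p = 0.52) to 0.08 ± 0.04 on JHD2 (limma adjusted p = 0.13).

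**Figure D4:**
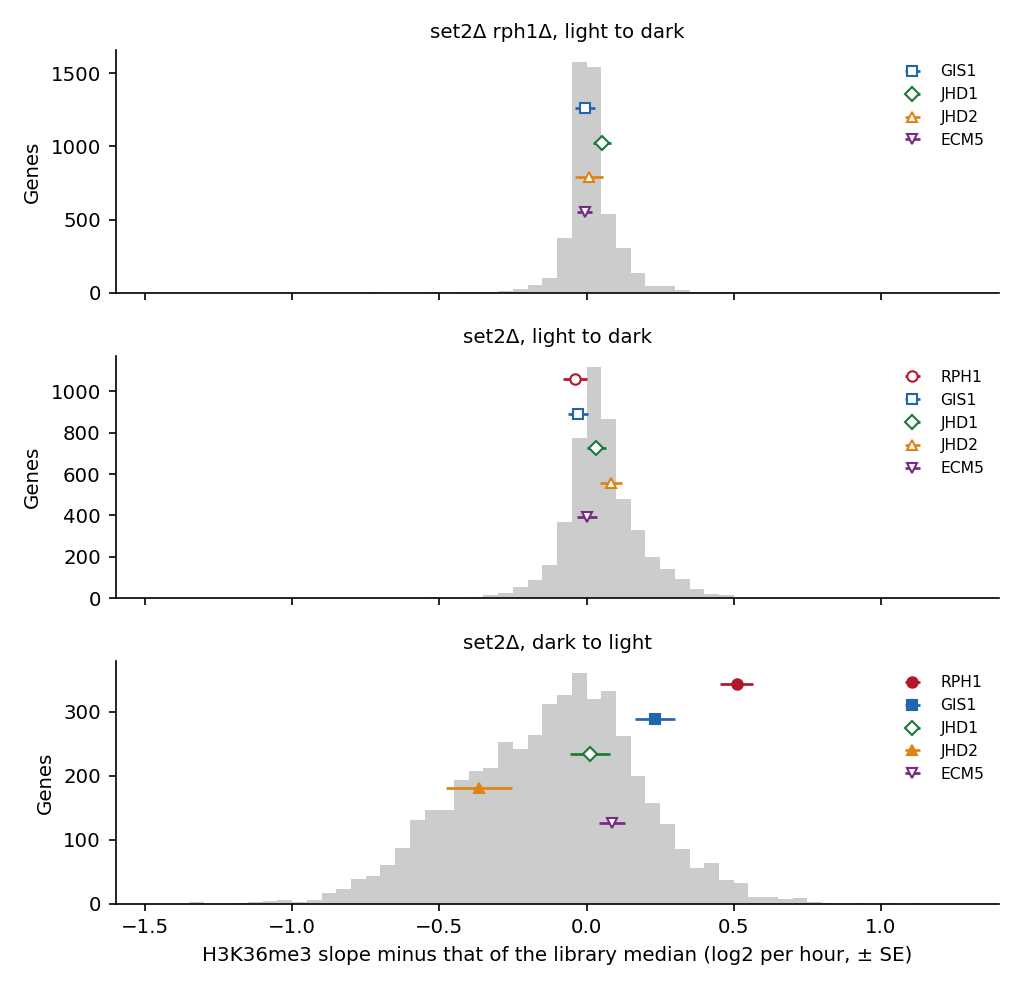
H3K36me3 slope minus that of the library median (log2 per hour, horizontal axis) for all genes (grey bars, number of genes per bin on the vertical axis) and for the JmjC genes (points ± SE at arbitrary heights), filled where the adjusted p is under 0.05. RPH1, GIS1 and JHD2 are filled in set2Δ cells from dark to light, no member is filled in the other courses, and RPH1 is not drawn for set2Δ rph1Δ cells.

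In the libraries labelled set2Δ rph1Δ the signal at RPH1 could not be read as that of an intact gene. At 0 min it was 0.132, 0.130 and 0.378, at 30 min 0.0887, 0.152 and 0.150, at 60 min 0.0027, 0.0031 and 0.302, and at 90 min 0.0635, 0.0338 and 0.0720. The highest replicate at 60 min was 111 times the lowest, against 1.62 times for the median gene and 1.28 times for RPH1 in set2Δ cells at that time. The neighbours did not show this, since CCA1 had 0.136, 0.138 and 0.216 and ADK2 0.0565, 0.0627 and 0.115 at 60 min. The tables hold no read numbers, so these values neither check the deletion nor give a slope, and RPH1 is left out of the counts in this strain.

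Replicate 3 of the set2Δ rph1Δ libraries had the highest signal of the 3 at every time on all 4 other members, for GIS1 0.231 to 0.361, against 0.131 to 0.279 in replicates 1 and 2, and results are also given without it, an alternative chosen after seeing the data. In set2Δ rph1Δ cells the signal fell on all 4 other members, as on 97.4% of 4815 genes. GIS1 fell to 0.166 ± 0.056 at 90 min, against 0.305 ± 0.049 at 0 min, and JHD1 to 0.113 ± 0.042, against 0.200 ± 0.038. The share remaining was 54.4% on GIS1, 56.4% on JHD1, 50.9% on JHD2 and 52.4% on ECM5, beside 53.1% on the median gene. Slopes were -0.56 ± 0.17 per hour on GIS1, -0.50 ± 0.18 on JHD1, -0.55 ± 0.18 on JHD2 and -0.56 ± 0.18 on ECM5 (limma adjusted p of 0.0027 to 0.0073). Without replicate 3 the slopes were -0.64 ± 0.05 on GIS1, -0.59 ± 0.07 on JHD1, -0.57 ± 0.09 on JHD2 and -0.62 ± 0.07 on ECM5, beside a median of -0.62. Relative to the library median no member passed, where 1.39% of genes did, nor did any without replicate 3.

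The difference between the strains was tested directly. The slope in set2Δ rph1Δ cells minus that in set2Δ cells was 0.26 ± 0.18 per hour on GIS1, 0.25 ± 0.19 on JHD1, 0.16 ± 0.19 on JHD2 and 0.23 ± 0.19 on ECM5, beside a median of 0.20 over 4712 genes. All 4 values were positive, meaning slower loss in set2Δ rph1Δ cells, but in the fit without a replicate block none passed, and neither did any other gene (0%, limma, with 119 genes and none of the 4 members at an unadjusted p under 0.05). The 95% interval on GIS1 was -0.10 to 0.61 per hour. Without set2Δ rph1Δ replicate 3 the differences were 0.18 ± 0.10 on GIS1, 0.16 ± 0.12 on JHD1, 0.13 ± 0.12 on JHD2 and 0.17 ± 0.10 on ECM5, beside a median of 0.13, and none of the 4 passed (limma adjusted p of 0.51 to 0.54). With a replicate block and all libraries, GIS1, JHD1 and ECM5 passed (limma adjusted p = 0.022, 0.031 and 0.023). They were among 2055 genes called with a positive difference, and 1 gene was called with a negative one. Whether these differences pass thus depends on the block.

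Relative to the library median, 0.149% of genes passed and no member did. The differences were then 0.02 ± 0.05 per hour on GIS1, 0.02 ± 0.04 on JHD1, -0.07 ± 0.06 on JHD2 and -0.01 ± 0.04 on ECM5. The 95% intervals of these 4 values ran from -0.19 per hour at the lowest to 0.12 at the highest. In the authors' deposited model tables, the ZOIBeta estimate of the set2Δ rph1Δ course was negative with bounds that exclude 0 for these 4 members, and its bounds included 0 for RPH1. In the authors' deposited tables of the other model, ZINeg, the bounds of that course included 0 for all 5 members. For set2Δ cells from light to dark, both models were negative with bounds that exclude 0 for all 5 members. The share of all genes with such bounds was not counted here, so nothing particular to the members can be read from them.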

How the data were processed

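The 5 members were matched by identifier, and the members and gene lists were chosen with earlier results of these data known. The submitters' processing notes name, without saying what each did, STAR 2.5.2b and 2.5.4b, Salmon 0.8.1, deepTools 2.5.4 and DESeq2 1.14.1, with builds sacCer3 and ASM294v2. For rph1Δ and WT cells the deposited files give an estimated count per gene, TPM and the effective length, another unit. Course RNA was deposited as TPM, 1 table for each direction. Lists of called genes, deposited by the authors, carry log2 changes with p-value and adjusted p-value columns, and the deposited model tables give model estimates, a score with no stated scale. The deposited H3K36me3 tables give 1 signal per gene and library, and whether the fission yeast spike-in entered it is not given in the sources used here.

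Estimated counts were whole within 0.001, were rounded and tested with edgeR 4.0.16 (filterByExpr, TMM, quasi-likelihood, 6088 genes). Course TPM was tested as log2(TPM + 1) with limma 3.58.1 (trend, time as a factor, mean TPM of at least 1), which understates changes of genes near 1 TPM. Reads recovered from course TPM with the effective lengths were whole within 0.05 for 100% of values and were tested with edgeR as an alternative. H3K36me3 was tested with limma on log2(signal + 0.1 times the table median) for genes above the 10th percentile of mean signal, as a slope per hour, with and without subtracting each library's median, and as a strain by time interaction. The constant flattens slopes of low genes. The 95% intervals use the SE with the degrees of freedom that the fit's p implies. Simulated data were used to test the edgeR fit of rph1Δ against WT and the last time of each RNA course in limma. They were also used for the relative slopes and the relative difference between strains. The other times, the slopes not taken relative to the median and the alternative fits were not tested in this way. RNA changes as small as those called for GIS1 and ECM5 were not simulated.

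Named genes were the 5 members, the nearest protein-coding gene on each side of RPH1, up to 3 called genes with the smallest p per list and RNA comparison, and the 5 genes most like the most varying member. ATG8 and the listed genes that did not pass were added after their values were seen. RefSeq R64 gave coordinates and sequences, and MAFFT 7.526 aligned the translations. DESeq2 1.42.0, another normalisation, filters, constants, a replicate block and leaving out each library were tried.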

Additional observations from a re-analysis of the deposited data

How the results depend on the processing

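The count of members called kept within 1.5 times its main value under the alternatives tried, except as follows. At 40 min of light, where 2 members were called, leaving out single libraries gave 0 to 2 calls. At 60 min of light 1 member, against 0, was called by edgeR on recovered reads and 1 with the replicate block. Over all genes these fits called 39 higher and 100 lower, and 281 higher and 47 lower. Relative to the library median, 2 members, against 0, were called in set2Δ cells from light to dark with the larger constant (the table median). Most genes were called there, 1818 as higher and 1662 as lower among 4813. For the difference between strains in the slope itself, not taken relative to the median, 3 members, against 0, were called with the replicate block: GIS1 (limma adjusted p = 0.022), JHD1 (limma adjusted p = 0.031) and ECM5 (limma adjusted p = 0.023). Of all 4712 genes, 2055 were called there as positive and 1 as negative, so these calls are not particular to the family. The cause was not tested.

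The values that changed sign had not passed the test in the main fit, and ECM5 from dark to light then passed with the other sign (limma adjusted p = 0.037). With edgeR on recovered reads, the log2 change was -0.0031 for RPH1 and -0.037 for JHD2 at 40 min of light, -0.011 for JHD2 at 60 min of light and -0.0018 for GIS1 at 30 min of darkness. Among relative slopes, the larger constant gave -0.067 for ECM5 from dark to light, 0.0079 for RPH1 in set2Δ cells from light to dark and 0.0099 for ECM5 in set2Δ rph1Δ cells. The smaller constant gave -0.0074 for ECM5 in set2Δ cells from light to dark, and 0.0096 for GIS1 and -0.026 for JHD2 in set2Δ rph1Δ cells. Without the filter, ECM5 had -0.015 in set2Δ cells from light to dark and 0.0042 for the difference between strains. Without set2Δ rph1Δ replicate 3, chosen after seeing the data, the relative slope was 0.0064 for ECM5 in that strain, and the relative differences were -0.0022 for JHD1 and 0.0040 for ECM5.

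Leaving out single libraries gave, for rph1Δ against WT, -0.12 to 0.035 for JHD1 and -0.024 to 0.050 for JHD2. At 20 min of light RPH1 ran from -0.17 to 0.027 and JHD2 from -0.077 to 0.064, and at 60 min JHD2 ran from -0.058 to 0.18. In darkness GIS1 ran from -0.020 to 0.10 and ECM5 from -0.10 to 0.056 at 30 min, and JHD1 from -0.012 to 0.066 and ECM5 from -0.022 to 0.16 at 60 min. Relative slopes ran from -0.051 to 0.035 for JHD1 from dark to light, and in set2Δ cells from light to dark from -0.073 to 7.2e-05 for RPH1 and from -0.024 to 0.022 for ECM5. In set2Δ rph1Δ cells they ran from -0.022 to 0.012 for GIS1, -0.029 to 0.042 for JHD2 and -0.022 to 0.0056 for ECM5, and the differences between strains from -0.0055 to 0.034 for JHD1 and -0.028 to 0.018 for ECM5.

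Replicate numbers did not meet the rule for pairs, since no set had every same-numbered pair above r = 0.1. This r is taken over genes, so an offset shared by all genes of a library does not enter it. The rule therefore cannot tell whether same-numbered libraries share such an offset. In the light to dark RNA r was 0.033 to 0.50, and over all sets -0.26 to 0.51. As a hint from the data and not the design, the libraries nearest to their own number were 2 of 6 in rph1Δ and WT RNA, 8 of 11 and 10 of 12 in the dark to light and light to dark RNA, and for H3K36me3 10 of 12 in set2Δ rph1Δ cells, 8 of 12 in set2Δ cells from light to dark and 12 of 12 from dark to light. With the replicate block the genes called at 40 and 60 min of light were 748 and 328, against 224 and 3, at 30, 60 and 90 min of darkness 6, 155 and 782, against 0, 18 and 115, for the strain difference 2056, against 0, and for relative slopes in set2Δ rph1Δ cells 123, against 67. EdgeR on recovered reads called 482 and 139 genes at 40 and 60 min of light and 42 and 195 at 60 and 90 min of darkness. With the larger constant 3730, 3480 and 2232 relative slopes were called from dark to light, in set2Δ cells and in set2Δ rph1Δ cells from light to dark, against 2460, 944 and 67. Depth limited the RNA of JHD2 most, at 170 to 261 reads per library in rph1Δ and WT cells, and H3K36me3 carries no read numbers.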
